A study of Mus musculus with 6 samples.

Results

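The genes described here are 42 germline genes of the mouse, out of 47643 gene identifiers counted in each library. They were taken by name, with no minimum of reads, as genes of the germ line, a class with many promoters known to be methylated in somatic cells. Methylation was not measured in these RNA libraries, and the trait was not checked for each gene. Total RNA had been sequenced from cells of embryonic dorsal root ganglia (strain CD-1, embryonic day 13), the clusters of sensory neurons beside the spinal cord, as part of work on axon regeneration. Cells of 3 libraries had received shUHRF1 lentivirus, which carries a short hairpin RNA against Uhrf1, and cells of the other 3 libraries shControl lentivirus, so that both groups carried a lentivirus. The labels give each group replicates 1 to 3 and no word on separate cultures, and p-values here reflect only the scatter among the 6 libraries, which could be technical.

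Germline genes serve meiosis and the defence of the germ line against transposons, and most are kept silent in somatic cells. Many have CpG-rich promoters that gain DNA methylation in the early embryo, and loss of that methylation is known to switch some of them on in dividing cells. UHRF1 binds hemimethylated DNA behind the replication fork and brings in the maintenance methyltransferase DNMT1. A second layer is PRC1.6, a polycomb complex that holds the DNA-binding proteins E2F6, MGA and MAX and is brought to germline promoters by an E2F motif and by the E-box CACGTG.

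The promoters of these genes were searched for CpG sites and for the E-box and E2F motif. RefSeq promoter windows on GRCm38.p6, 250 bases before and 50 bases from the start of transcription on, were found for 34 of the 42 genes. For 6 of them, Mei1, Meioc, Piwil1, Rhox5, Tex101 and Xlr5a, the nearest window started over 1000 bases from the start of the gene in GENCODE, by up to 175.3 kb for Xlr5a, and its letters may not be those of the promoter in use. The E-box CACGTG, which reads the same on both strands, lay in a window of 15 of these 34 genes (44.12%), Piwil1 among them, against 8.09% of all 27025 genes in the table. The E2F core GCGGGAA, searched on both strands, lay in 7 of 34 (20.59%), against 5.29% of all genes. Both words were found for 5 of the 34 genes (14.71%), against 0.61% of all genes. At least 15 CpG sites were found in a window of 24 of the 34 genes (70.59%), against 37.14% of all genes. CpG-rich windows hold both words more often in general. Among genes with at least 15 CpG sites the E-box shares were 58.33% of 24 germline genes and 12.83% of all 10038 genes. For the E2F core these shares were 29.17% and 11.37%. The genes were listed as a class known for methylated promoters, so these shares describe the choice and are not a test. A match describes the letters only and is not a measured binding site.

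The stretches printed next are the parts of 5 windows that lie before the first annotated exon, on the strand of the gene. They were chosen to set genes of unlike reads beside each other, from a gene without any read to one of the best covered. Capitals mark CACGTG and GCGGGAA.
Hormad1 (chr3:95559427-95559676, plus strand): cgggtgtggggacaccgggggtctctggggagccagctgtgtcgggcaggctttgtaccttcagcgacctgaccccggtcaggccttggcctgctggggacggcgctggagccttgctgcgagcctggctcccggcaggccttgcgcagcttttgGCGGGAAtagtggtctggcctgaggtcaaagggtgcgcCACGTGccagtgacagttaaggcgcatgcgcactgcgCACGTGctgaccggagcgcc
Tdrd1 (chr19:56825959-56826208, plus strand): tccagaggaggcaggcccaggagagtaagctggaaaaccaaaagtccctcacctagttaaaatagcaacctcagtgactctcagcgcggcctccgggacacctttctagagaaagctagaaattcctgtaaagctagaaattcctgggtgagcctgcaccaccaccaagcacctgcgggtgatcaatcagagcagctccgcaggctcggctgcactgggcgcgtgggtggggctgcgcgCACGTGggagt
Sycp1 (chr3:102936101-102936350, minus strand): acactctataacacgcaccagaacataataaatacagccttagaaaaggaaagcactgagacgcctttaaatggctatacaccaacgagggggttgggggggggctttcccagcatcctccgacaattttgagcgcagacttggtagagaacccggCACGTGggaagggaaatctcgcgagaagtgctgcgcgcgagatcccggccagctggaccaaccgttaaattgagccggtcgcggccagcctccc
Brdt (chr5:107330944-107331158, plus strand): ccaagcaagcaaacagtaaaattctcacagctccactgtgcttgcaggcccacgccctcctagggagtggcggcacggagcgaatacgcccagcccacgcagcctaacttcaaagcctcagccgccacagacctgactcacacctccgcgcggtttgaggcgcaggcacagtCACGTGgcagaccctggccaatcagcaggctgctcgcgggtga
Dazl (chr17:50293637-50293870, minus strand): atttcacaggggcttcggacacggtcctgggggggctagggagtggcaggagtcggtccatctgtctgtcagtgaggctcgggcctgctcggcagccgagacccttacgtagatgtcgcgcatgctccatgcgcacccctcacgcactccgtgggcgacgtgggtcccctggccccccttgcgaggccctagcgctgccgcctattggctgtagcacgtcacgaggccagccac

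The stretch of Hormad1, a gene with 0 reads in all 6 libraries, held 19 CpG sites, both words and the E-box more than once. Those of Tdrd1, Sycp1 and Brdt each held the E-box, with 11, 17 and 14 CpG sites, although these genes had 56, 165 and 813 reads over the 6 libraries. The stretch of Dazl held neither word and 19 CpG sites, and this gene had 57 reads. An E-box was present in windows of 2 of the 6 genes without any read, of 2 of the 8 genes with 1 to 18 reads and of 11 of the 20 genes with at least 20 reads. Median CpG counts in these classes were 19.5, 15.5 and 20.5, and genes with an E-box were found in each class.

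**Figure D1:**
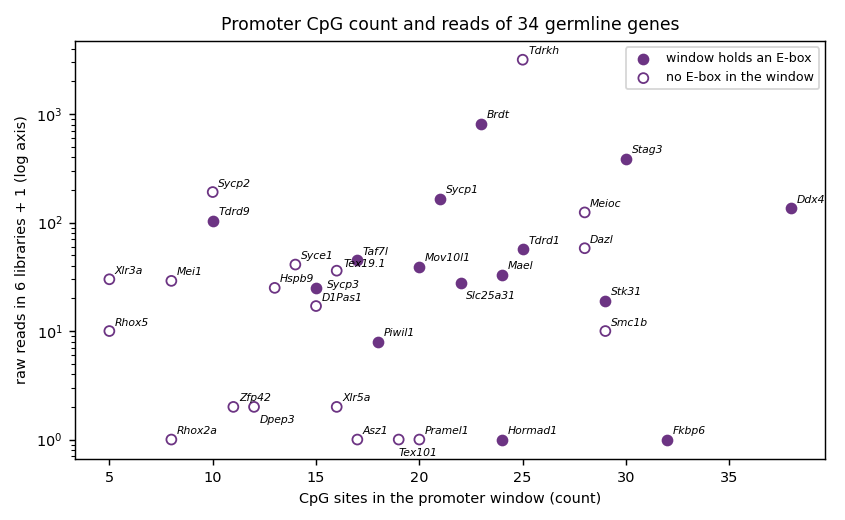
CpG sites in the promoter window (x axis, count) against raw reads over the 6 libraries plus 1 (y axis, log scale) for the 34 germline genes with a window; filled points hold an E-box. Filled points run from Hormad1 and Fkbp6 at 0 reads to Brdt at 813, and open points from genes at 0 reads to Tdrkh at the top.

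The libraries held 16501723 to 20973068 reads in genes in shUHRF1 and 15599776 to 22382813 in shControl. Uhrf1 itself had 2, 1 and 5 reads in shUHRF1 replicates 1, 2 and 3. In shControl replicates 1, 2 and 3 it had 8, 6 and 5 reads. The ratio of pooled reads was 0.376 with an exact Poisson interval of 0.143 to 0.900, for counting error alone. The groups overlapped, and Uhrf1 did not pass in the edgeR fit without a low-count filter (adjusted p = 0.245). The pooled reads were thus fewer in shUHRF1, but too few to measure the size of the difference. The 7 neuronal markers, among them Tubb3, Stmn2, Isl1, Prph, Snap25 and Elavl4, were all present and together made up 11761 to 15182 CPM (reads scaled to library size) in shUHRF1 and 14998 to 16805 CPM in shControl, and 1 of them, Tubb3, fell, while Elavl4 passed with the replicate number as a block (log2 fold change 0.48, edgeR adjusted p = 0.0246). Of 8 markers of germ and pluripotent cells, Pou5f1, Tfap2c and Dppa3 had 0 reads in every library and Prdm14 had 1 read in all, while Nanog had 15, 6 and 5 reads in shUHRF1 and 3, 4 and 1 reads in shControl. Sox2 had 7, 6 and 7 reads in shUHRF1 and 0, 1 and 0 reads in shControl, without overlap, and was called higher in the edgeR fit without a low-count filter (adjusted p = 0.0141). Which cells gave these Sox2 reads was not tested, and 7 of 9 Schwann and satellite glia markers rose too. Among the other markers of germ and pluripotent cells, Kit, a receptor that other cells also use, rose and Nanos3 did not pass. Kit made up nearly all of the sums of the germ and pluripotent list, 134 to 261 CPM in shUHRF1 and 76.8 to 114 CPM in shControl. Of 6 markers of dividing cells 4 were tested and 0 were called by edgeR, also at an unadjusted p below 0.05, but Mcm2 was called lower with the replicate block (log2 fold change -0.57, edgeR adjusted p = 0.0353), with sums of the list of 12.8 to 22.2 CPM in shUHRF1 and 20.1 to 23.2 CPM in shControl. Markers of other cells moved with the groups. All 8 fibroblast markers rose, with a summed level of 72.1 to 165 CPM in shUHRF1 and 6.66 to 9.51 CPM in shControl, and 7 of 9 Schwann and satellite glia markers rose, with sums of 59.1 to 299 CPM in shUHRF1 and 221 to 268 CPM in shControl, most of it from S100b, which did not pass the test. Of 8 macrophage markers 2 rose, with sums of 13.8 to 23.3 CPM in shUHRF1 and 4.78 to 9.80 CPM in shControl, where 5 were tested and C1qa passed too with the replicate block (edgeR adjusted p = 0.0474). Without a low-count filter edgeR called 5 of the 8 macrophage markers higher, against 6.75% of all genes in that fit. No marker of these 3 lists, of fibroblasts, glia and macrophages, was at 0 reads in all libraries. The part of these cells in the values of the germline genes was not tested, and in such bulk RNA fewer cells of a type and less RNA per cell cannot be told apart.

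The 42 germline genes had few reads in both groups. In 8 of them, Asz1, Fkbp6, Hormad1, Tex101, Rhox2a, Rhox6, Rhox9 and Pramel1, no read was counted in any library, a share of 19.0% against 17.2% of all protein-coding genes. A count of 0 allows up to 3 reads, which is 0.134 to 0.176 CPM in a shUHRF1 library and 0.143 to 0.194 CPM in a shControl library. At the other end 24 genes had at least 20 reads over the 6 libraries, and 22 genes (52.4%) had a read in every library, against 67.3% of all protein-coding genes. Together the 42 genes held 3700 reads in shUHRF1 and 2844 in shControl, about 0.00576% of all reads in genes. Tdrkh alone supplied 49.1% of them in shUHRF1 and 47.5% in shControl.

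More of the genes were detected in shUHRF1. At least 1 read was counted for 32, 30 and 33 of the 42 genes in shUHRF1 replicates 1, 2 and 3 and for 25, 27 and 27 in shControl replicates 1, 2 and 3, so that the groups did not overlap. Thinned to the smallest library total, the expected numbers were 31.4, 29.8 and 32.2 in shUHRF1 and 24.9, 27.0 and 26.6 in shControl. Detection was higher over the whole transcriptome too: 75.6% to 77.2% of protein-coding genes had a read in shUHRF1 and 72.6% to 73.5% in shControl. With at least 3 reads required, 28, 24 and 28 genes were detected in shUHRF1 and 23, 21 and 25 in shControl, and the groups overlapped. With at least 10 reads required, the numbers were 13, 13 and 12 in shUHRF1 and 11, 12 and 14 in shControl, and they overlapped too. Reads in shUHRF1 libraries only were found for 3 genes, Zfp42, Dpep3 and Xlr5a, each with a single read, which is 7.14% of the 42 against 7.71% of all genes and 4.75% of protein-coding genes. Reads in shControl libraries only were found for none of them, against 3.30% of all genes and 1.55% of protein-coding genes. The gain in detection thus lay in genes with a few reads per library.

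**Figure D2:**
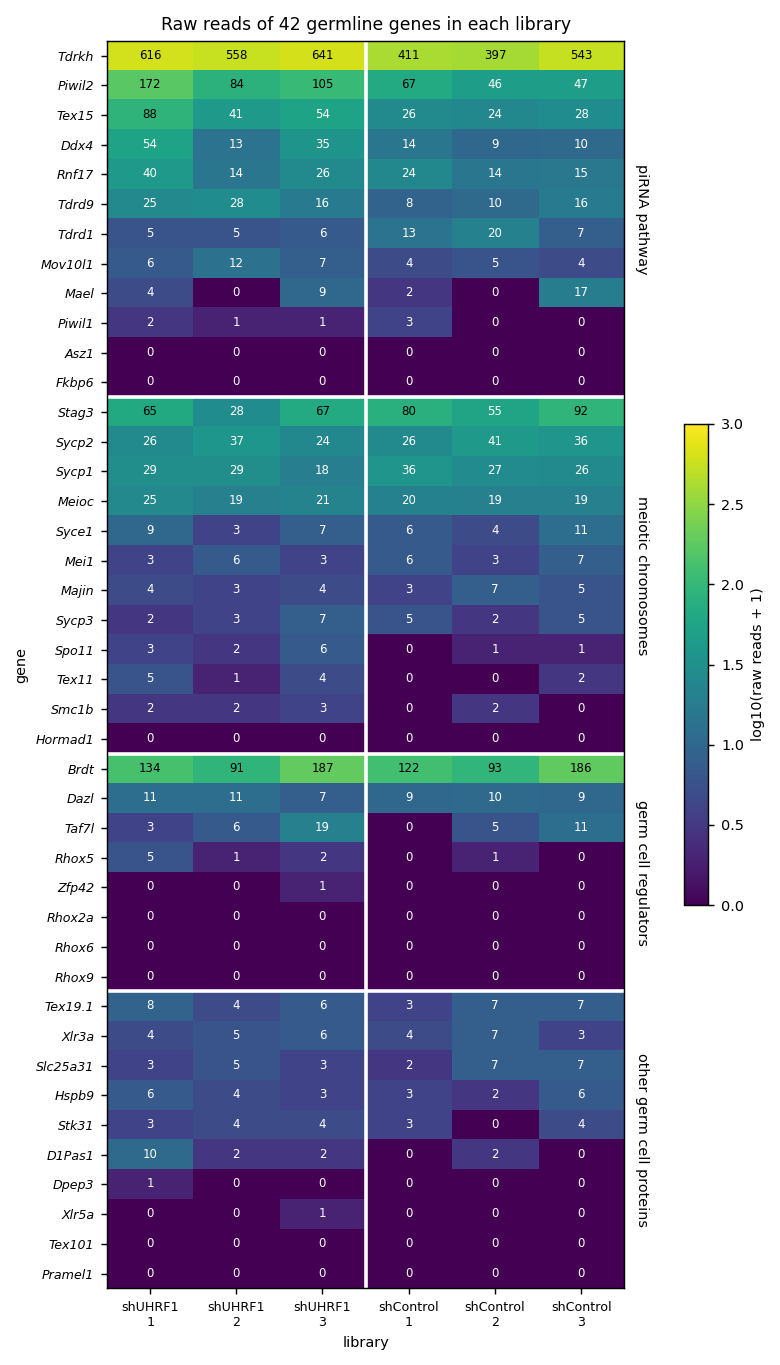
Raw reads of the 42 germline genes (rows, by role) in each library (columns, shUHRF1 replicates 1 to 3, then shControl replicates 1 to 3); numbers are reads and colour is log10(reads + 1). Rows at 0 in every library, such as Asz1, Hormad1 and Rhox6, contrast with Tdrkh, at 397 to 641 reads, and Brdt, at 91 to 187 reads per library.

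The level summed over all 42 genes was 61.5, 60.0 and 63.1 CPM in shUHRF1 replicates 1, 2 and 3, against 52.2, 53.0 and 53.7 CPM in shControl replicates 1, 2 and 3. The means were 61.6 ± 1.52 CPM in shUHRF1 and 53.0 ± 0.746 CPM in shControl (SD, n = 3 each), a log2 ratio of 0.22. Pooled reads, scaled for depth, had a ratio of 1.16 (exact Poisson 95% interval 1.11 to 1.22, for counting error alone). Tdrkh carried much of this. Without it the sums were 33.9, 27.3 and 32.1 CPM in shUHRF1 and 28.4, 27.3 and 27.8 CPM in shControl, and the groups overlapped. Over the 30 genes with too few reads to be tested singly, the mean was 4.34 ± 0.597 CPM in shUHRF1 and 4.26 ± 0.835 CPM in shControl (SD, n = 3 each), a ratio of pooled reads of 1.02 with an interval of 0.850 to 1.22. As a sum, these 30 genes therefore showed no gain in reads that could be told from counting error. Tdrd1 weighed on that sum, with 16 of its 261 reads in shUHRF1 and 40 of its 229 reads in shControl. The 30 genes are also those that the low-count filter left, and a gene can pass it through its higher group.

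Tested one by one across all genes, few of the 42 passed. By edgeR's quasi-likelihood test with Benjamini-Hochberg adjustment, 3735 of 15573 tested genes (24%) had an adjusted p below 0.05, 11.6% higher and 12.4% lower in shUHRF1. Of the 42 germline genes 12 had enough reads to be tested, 2 of them rose, Piwil2 and Tex15, none fell, and 10 did not pass. At an unadjusted p below 0.05 there were 3 of 12, against 37.7% of all tested genes. These shares were near the background or below it. Their median log2 fold change was 0.13, against 0.02 for all tested genes, and 6 of the 12 were positive, where 51.4% of all tested genes were. The CPM of the groups did not overlap for 4 of the 12 with shUHRF1 higher and for 1 with shUHRF1 lower, against 21.6% of all tested genes with shUHRF1 higher and 44% in either direction. Without a low-count filter 34 germline genes could be tested and 1, Piwil2, rose, against 6.75% of all genes called higher and 13.9% called in either direction there. Upper-quartile scaling, with a median of 0.14 over all genes on the log2 scale, gave 2512 genes higher and 1378 lower in place of 1807 higher and 1928 lower. Both rises were lost when any 1 of 5 libraries was left out, shControl replicate 1, 2 or 3 or shUHRF1 replicate 1 or 3, with edgeR adjusted p of 0.0563 to 0.153 for Piwil2 and 0.0755 to 0.131 for Tex15.

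**Figure D3:**
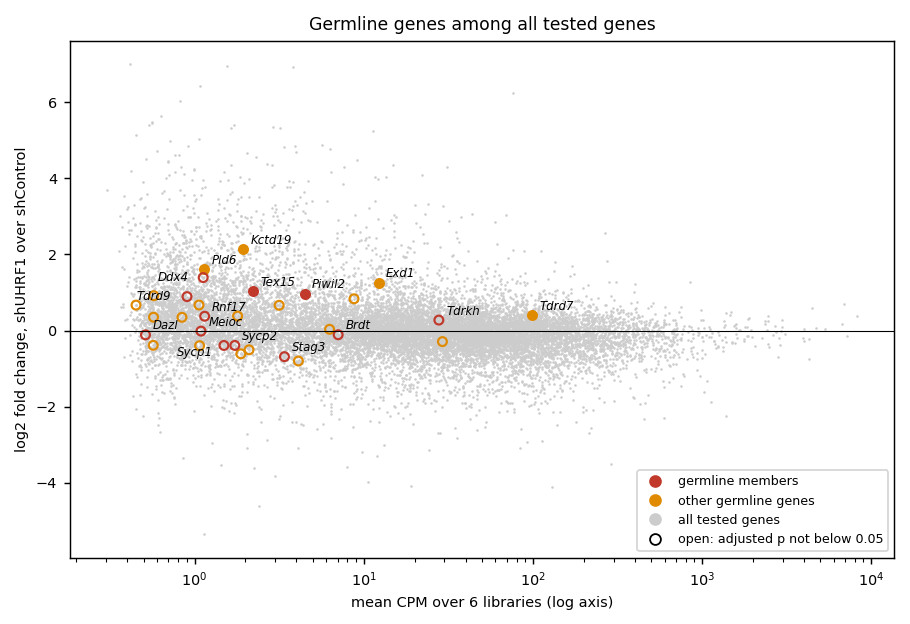
Mean CPM over the 6 libraries (x axis, log scale) against the edgeR log2 fold change of shUHRF1 over shControl (y axis) for all 15573 tested genes (grey), 12 tested germline genes (red) and 19 tested genes of a second germline list (orange); filled points had an adjusted p below 0.05. The filled points, 2 red and 4 orange, all lie above 0, and Stag3 is the lowest of the red points at -0.68.

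The piRNA pathway makes small RNAs that guide the silencing of transposons in germ cells. All 6 of its tested members had positive log2 fold changes and 2 rose, where 51.4% of all tested genes were positive and 11.6% were called higher. These counts are not a test, since the group was set with results known. The low-count filter can also admit a gene through its higher group. Without that filter Tdrd1 and Mael were negative (-1.55 and -0.66) and Mov10l1 and Piwil1 positive (0.76 and 0.18). Piwil2 (ENSMUSG00000033644, chromosome 14, 70372477 to 70429383 on the minus strand of GRCm38) encodes a PIWI protein that binds these small RNAs. It had 172, 84 and 105 reads in shUHRF1 replicates 1, 2 and 3, against 67, 46 and 47 reads in shControl replicates 1, 2 and 3. Every shUHRF1 library lay above every shControl library, as 21.6% of all tested genes did. Its level was 5.91 ± 1.56 CPM in shUHRF1 and 3.03 ± 0.822 CPM in shControl (SD, n = 3 each), and the log2 fold change was 0.97 ± 0.29 (SE; edgeR adjusted p = 0.0458).

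Tex15 (ENSMUSG00000009628, chromosome 8, 33516738 to 33585582, plus strand), needed in mouse for meiotic recombination and for piRNA-guided methylation of transposons, had 88, 41 and 54 reads in shUHRF1 and 26, 24 and 28 reads in shControl. The 2 groups did not overlap, and shUHRF1 replicate 1 was the highest. Its level was 2.99 ± 0.834 CPM in shUHRF1 and 1.47 ± 0.113 CPM in shControl (SD, n = 3 each), and the log2 fold change was 1.03 ± 0.29 (SE; edgeR adjusted p = 0.0378). Without shUHRF1 replicate 1 the log2 fold change was 0.78.

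Ddx4 (ENSMUSG00000021758, chromosome 13, 112598333 to 112652475, minus strand), the Vasa RNA helicase and a classical marker of germ cells, had 54, 13 and 35 reads in shUHRF1, against 14, 9 and 10 reads in shControl. Replicates 1 and 3 of shUHRF1 lay well above shControl, while shUHRF1 replicate 2 lay just below shControl replicate 1 in CPM. Its level was 1.63 ± 0.830 CPM in shUHRF1 and 0.624 ± 0.171 CPM in shControl (SD, n = 3 each). The log2 fold change of 1.39 ± 0.48 (SE) was the largest of the 12 tested germline genes and did not pass (edgeR adjusted p = 0.0688). With the replicate number as a block it did, with a log2 fold change of 1.36 and an edgeR adjusted p of 0.0280, where 31% of all tested genes were called.

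Tdrkh (ENSMUSG00000041912, chromosome 3, 94413273 to 94434668, plus strand) encodes a tudor protein that anchors PIWI proteins at mitochondria. It was the best covered of the genes, also per length, at 4.53 CPM per kilobase over the 6 libraries, where the next, Brdt, had 1.38. It had 616, 558 and 641 reads in shUHRF1 and 411, 397 and 543 reads in shControl. Every shUHRF1 library was above every shControl library in CPM, at 30.5 ± 2.63 CPM in shUHRF1 and 25.1 ± 1.14 CPM in shControl (SD, n = 3 each). The log2 fold change of 0.28 ± 0.12 (SE) did not pass (edgeR adjusted p = 0.138). Exons of Oaz3 on the opposite strand overlap 36.7% of its exonic length, and without the strand setting of the counting this value is uncertain.

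The other tested genes of the pathway did not pass. Tdrd9, a helicase with a tudor domain, had 25, 28 and 16 reads in shUHRF1 and 8, 10 and 16 reads in shControl, and its log2 fold change was 0.89 ± 0.40 (SE; edgeR adjusted p = 0.146). Its groups did not overlap in CPM, but shUHRF1 replicate 3 and shControl replicate 3 were nearly equal, at 0.773 and 0.764 CPM. Rnf17, a tudor protein of germ cell granules, had 40, 14 and 26 reads in shUHRF1 and 24, 14 and 15 reads in shControl and overlapped.

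Tdrd1, which gathers PIWI proteins in those granules, had fewer reads in shUHRF1. It had 5, 5 and 6 reads in shUHRF1 and 13, 20 and 7 reads in shControl, a ratio of pooled reads of 0.358 with a 95% exact Poisson interval of 0.187 to 0.653. The groups did not overlap in CPM, though shControl replicate 3, at 0.334 CPM, was close to the 0.294 CPM of shUHRF1 replicate 2. In the fit without a low-count filter its log2 fold change was -1.55, with an edgeR adjusted p of 0.0799.

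Mov10l1, a helicase of piRNA production, had 6, 12 and 7 reads in shUHRF1 and 4, 5 and 4 reads in shControl, and the counting interval of its ratio, 0.847 to 3.66, spanned 1. Mael, a protein of piRNA biogenesis, had 4, 0 and 9 reads in shUHRF1 and 2, 0 and 17 reads in shControl. The libraries numbered 2 had no read of Mael in either group and those numbered 3 had the most. Piwil1, the PIWI protein of later spermatogenesis, had 4 reads in shUHRF1 and 3 in shControl, and Asz1 and Fkbp6 had none.

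Summed over its 12 genes, the piRNA pathway stood at 45.3, 44.4 and 43.5 CPM in shUHRF1 replicates 1, 2 and 3, against 33.2, 33.9 and 32.8 CPM in shControl replicates 1, 2 and 3. Without Tdrkh the other 11 genes summed to 17.7, 11.6 and 12.5 CPM in shUHRF1 and 9.34, 8.27 and 6.88 CPM in shControl. Both sums kept the groups apart, with log2 ratios of 0.42 and 0.77, also with RLE and upper-quartile scaling and with library totals. The roles were set for this description with results known, so this separation is not a test.

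The next group holds 12 genes of the meiotic chromosome axis, the synaptonemal complex that joins homologous chromosomes, cohesin and recombination. None of those tested passed in either direction. Tex15, also needed for recombination, rose but was placed with the piRNA pathway. Stag3 (ENSMUSG00000036928, chromosome 5, 138280240 to 138312393, plus strand), a cohesin subunit of meiosis, had 65, 28 and 67 reads in shUHRF1, against 80, 55 and 92 reads in shControl. Every shUHRF1 library lay below every shControl library, at 2.60 ± 0.842 CPM in shUHRF1 and 4.20 ± 0.569 CPM in shControl (SD, n = 3 each), with shUHRF1 replicate 2 the lowest. The log2 fold change of -0.68 ± 0.30 (SE) did not pass (edgeR adjusted p = 0.134).

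Sycp1, the transverse filament of the synaptonemal complex, had 29, 29 and 18 reads in shUHRF1 and 36, 27 and 26 reads in shControl. Sycp2, a protein of the chromosome axis, had 26, 37 and 24 reads in shUHRF1 and 26, 41 and 36 reads in shControl. Both overlapped between groups, with the same log2 fold change of -0.39 and edgeR adjusted p of 0.478 for Sycp1 and 0.498 for Sycp2. In CPM the library numbered 2 was the highest of its group for Sycp2 both in shUHRF1 and in shControl.

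Meioc, which keeps germ cells in meiotic prophase, was nearly equal in all libraries, with 25, 19 and 21 reads in shUHRF1 and 20, 19 and 19 reads in shControl. Its log2 fold change was -0.01 ± 0.30 (SE), with an edgeR adjusted p of 0.983, and its level was 1.08 ± 0.0596 CPM in shUHRF1 and 1.10 ± 0.169 CPM in shControl (SD, n = 3 each).

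Of the axis and complex genes with too few reads for the test, Syce1, of the central element of the synaptonemal complex, had 9, 3 and 7 reads in shUHRF1 and 6, 4 and 11 reads in shControl. Sycp3, of the axis, had 2, 3 and 7 reads in shUHRF1 and 5, 2 and 5 reads in shControl, and exons of Chpt1 on the opposite strand overlap 52.2% of its exonic length. Neither gene separated the groups.

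Mei1, needed for meiotic DNA breaks in mouse, had 3, 6 and 3 reads in shUHRF1 and 6, 3 and 7 reads in shControl. Majin, which ties telomeres to the nuclear envelope in meiosis, had 4, 3 and 4 reads in shUHRF1 and 3, 7 and 5 reads in shControl. The counting intervals of both ratios, 0.289 to 1.51 and 0.272 to 1.53, spanned 1.

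Spo11, the enzyme that makes meiotic DNA breaks, had 3, 2 and 6 reads in shUHRF1 and 0, 1 and 1 in shControl, and the groups did not overlap. The ratio of pooled reads was 4.92 with a wide 95% exact Poisson interval of 1.07 to 45.6, and the edgeR adjusted p without a low-count filter was 0.249. Tex11, an X-linked gene of meiotic recombination, had 5, 1 and 4 reads in shUHRF1 and 0, 0 and 2 in shControl, with an interval of 0.952 to 41.9. Smc1b, a meiotic cohesin subunit, had 2, 2 and 3 reads in shUHRF1 and 0, 2 and 0 in shControl, with an interval of 0.596 to 30.9. These 3 genes leaned the same way on 7 to 11 reads in shUHRF1, which is too few to measure a fold.

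Summed over its 12 genes, the meiotic group stood at 7.75, 7.81 and 7.93 CPM in shUHRF1 replicates 1, 2 and 3, against 10.6, 10.4 and 9.75 CPM in shControl replicates 1, 2 and 3, a log2 ratio of -0.39. The groups stayed apart under all 4 scalings, with log2 ratios of -0.26 to -0.39. Here too the roles were set with results known, so this separation is not a test. These sums leave out Tex15, which also serves recombination and was counted with the piRNA pathway. Without Stag3 the sums were 4.84, 6.17 and 4.69 CPM in shUHRF1 and 5.92, 6.85 and 5.35 CPM in shControl, and they overlapped.

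**Figure D4:**
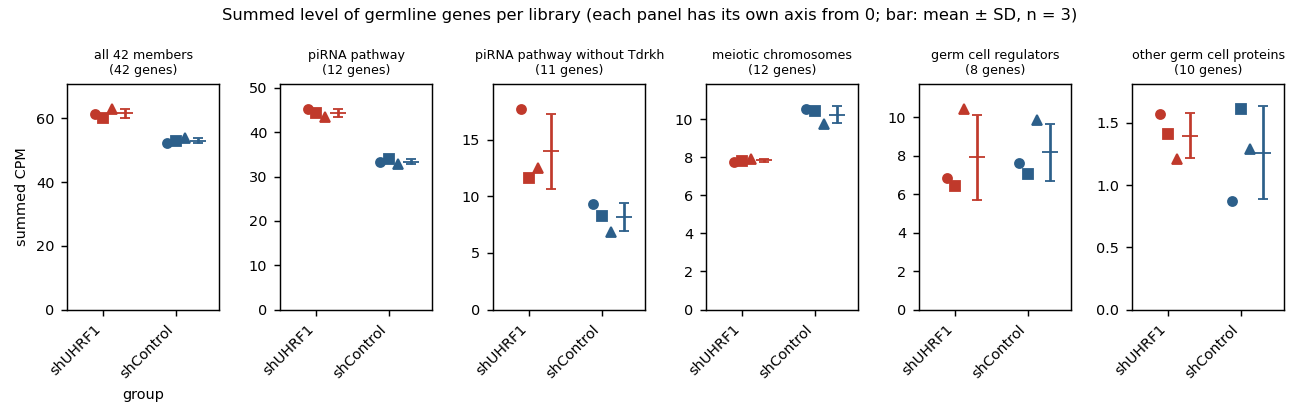
Summed CPM per library (y axis, from 0 in each panel) for all 42 germline genes and for the groups by role, in shUHRF1 (red, left) and shControl (blue, right); circles, squares and triangles are replicates 1, 2 and 3, and bars are mean ± SD (n = 3). The piRNA sums of shUHRF1, 43.5 to 45.3 CPM, lie above the 32.8 to 33.9 CPM of shControl, and the meiotic sums of shUHRF1, 7.75 to 7.93 CPM, lie below the 9.75 to 10.6 CPM of shControl. The roles were set with results known.

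Of the regulators of germ cell expression 2 were tested and neither passed, and the sums of the 8 genes overlapped, at 7.90 ± 2.21 CPM in shUHRF1 and 8.16 ± 1.48 CPM in shControl (SD, n = 3 each). Brdt (ENSMUSG00000029279, chromosome 5, 107331159 to 107387058, plus strand), the testis member of the BET bromodomain family, had 134, 91 and 187 reads in shUHRF1 and 122, 93 and 186 reads in shControl. Its levels ran in parallel in the 2 groups, lowest in replicate 2 and highest in replicate 3, and were 6.80 ± 1.97 CPM in shUHRF1 and 7.32 ± 1.45 CPM in shControl (SD, n = 3 each). The log2 fold change was -0.11 ± 0.26 (SE), with an edgeR adjusted p of 0.802.

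Dazl, an RNA-binding protein that licenses germ cells, had 11, 11 and 7 reads in shUHRF1 and 9, 10 and 9 reads in shControl, and its log2 fold change was -0.11 ± 0.41 (SE; edgeR adjusted p = 0.877). Taf7l, an X-linked germ cell form of a TFIID subunit, had 3, 6 and 19 reads in shUHRF1 and 0, 5 and 11 reads in shControl. As with Brdt, the libraries numbered 3 were the highest of both groups for Taf7l. Both genes overlapped between the groups, and the signs of the fold changes of Brdt, Dazl and Meioc turned under upper-quartile scaling, to 0.02, 0.01 and 0.11, so no direction is given for them.

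Rhox5, an X-linked homeobox gene often used as a reporter of lost promoter methylation, had 5, 1 and 2 reads in shUHRF1 and 0, 1 and 0 in shControl. With 1 read in shControl the ratio of 7.15 has a 95% exact Poisson interval of 0.959 to 317, and the gene stayed at or below 0.224 CPM in every library. Its relatives Rhox2a, Rhox6 and Rhox9 had no read, and Zfp42, a zinc finger gene of pluripotent cells, had 1 read in shUHRF1 replicate 3. Reads that align to several places are not counted for a gene in these files, so the closely related Rhox and Xlr genes and the retrogene D1Pas1 may be undercounted.

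Among the other germ cell proteins, Tex19.1, which restrains retrotransposons, had 8, 4 and 6 reads in shUHRF1 and 3, 7 and 7 reads in shControl. Xlr3a, of an X-linked multicopy family, had 4, 5 and 6 reads in shUHRF1 and 4, 7 and 3 reads in shControl. Slc25a31, the germ cell ADP/ATP carrier, had 3, 5 and 3 reads in shUHRF1 and 2, 7 and 7 reads in shControl. All 3 overlapped between the groups.

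Hspb9, a testis member of the small heat shock proteins, had 6, 4 and 3 reads in shUHRF1 and 3, 2 and 6 reads in shControl. Stk31, a kinase-like tudor protein, had 11 reads in shUHRF1 and 7 in shControl. D1Pas1, a testis retrogene related to Ddx3x, had 10, 2 and 2 reads in shUHRF1 and 0, 2 and 0 reads in shControl, most of them in shUHRF1 replicate 1, with a counting interval of the ratio of 1.44 to 56.7. Dpep3 and Xlr5a had 1 read each, in shUHRF1, and Tex101 and Pramel1 had none. Summed, these 10 genes had 1.40 ± 0.180 CPM in shUHRF1 and 1.26 ± 0.374 CPM in shControl (SD, n = 3 each).

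**Figure D5:**
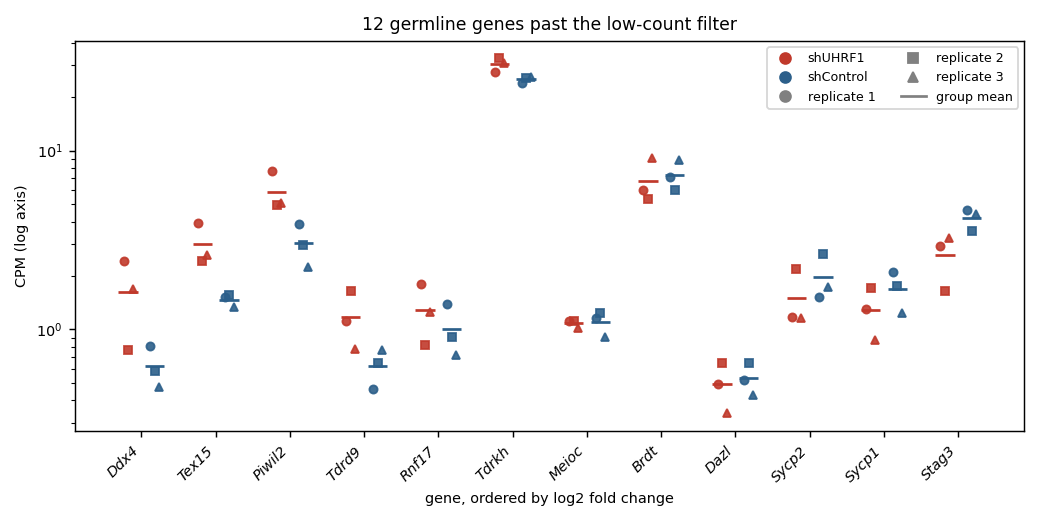
CPM (y axis, log scale) of the 12 germline genes past the low-count filter in each library, ordered from the highest to the lowest log2 fold change; shUHRF1 in red at the left, shControl in blue at the right, symbols for replicates and lines for group means. Tex15, Piwil2, Tdrd9 and Tdrkh lie higher in every shUHRF1 library and Stag3 lower, and the other 7 overlap.

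A second list of 58 germline genes, of which 56 were found in the files, covers further genes of the same pathways. Of these 12 had no read in any library, 19 were tested, and 4 rose and none fell, by edgeR's test at an adjusted p below 0.05, or 5 with the replicate block, which added Mei4 (edgeR adjusted p = 0.00896). Their median log2 fold change was 0.38, against 0.02 for all tested genes, of which 11.6% were called higher. Exd1, a partner of piRNA biogenesis, was at 17.3 ± 2.43 CPM in shUHRF1 and 7.21 ± 1.88 CPM in shControl (SD, n = 3 each), a log2 fold change of 1.26 ± 0.22 (SE). Pld6, the mitochondrial nuclease that cuts piRNA precursors, had 45, 23 and 37 reads in shUHRF1 and 11, 8 and 11 reads in shControl (1.61 ± 0.33, log2, SE). Kctd19, needed for meiosis in mouse spermatocytes, had 110, 41 and 44 reads in shUHRF1 and 20, 7 and 11 reads in shControl (2.14 ± 0.49, log2, SE). Tdrd7, a tudor protein, was at 113 ± 7.62 CPM in shUHRF1 and 84.9 ± 2.45 CPM in shControl (SD, n = 3 each), a log2 fold change of 0.41 ± 0.10 (SE). The edgeR adjusted p was 0.00683 for Exd1, 0.0112 for Pld6, 0.0175 for Kctd19 and 0.0250 for Tdrd7, whose call was lost without a low-count filter (0.0786). Without shControl replicate 3 only 1 gene of this list was called, and 2 without shControl replicate 2.

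A further list holds writers, readers and erasers of DNA methylation and subunits of PRC1.6 and other repressors. Of 35 listed genes 31 were tested, 2 rose, 3 fell and 26 did not pass, with a median log2 fold change of 0.01, where 24% of all tested genes were called, 11.6% higher and 12.4% lower. With the replicate block 7 were called, and the added genes were E2f6, a DNA-binding subunit of PRC1.6, at a log2 fold change of 0.51 (edgeR adjusted p = 0.0231), and Hells, a chromatin remodeller needed for DNA methylation, at -0.66 (edgeR adjusted p = 0.0312). That block called 31% of all tested genes. Tet2, a methylcytosine oxidase, rose, at 77.7 ± 13.0 CPM in shUHRF1 and 30.1 ± 6.28 CPM in shControl (SD, n = 3 each), a log2 fold change of 1.37 ± 0.19 (SE). Rnf2, a catalytic subunit of PRC1, rose by 0.65 ± 0.17 on the log2 scale (SE). Among the genes that fell, Yaf2, a PRC1 subunit, and Wdr5, a chromatin scaffold protein shared with PRC1.6, had log2 fold changes of -0.65 and -0.42. The edgeR adjusted p of these 4 genes lay between 0.00252 and 0.0284. Leaving out replicate 1 or 3 of shControl, or replicate 3 of shUHRF1, gave 3 calls on this list.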

How the data were processed

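Per the labels' protocols, total RNA was depleted of ribosomal RNA and turned into cDNA with a SMARTer kit. The authors deposited raw read counts per gene identifier, 1 table per library. The submitters' processing notes name FastQC, STAR, HTSeq, DESeq2 and mm10; for versions, annotation release and strand setting: not given in the sources used here. Summary lines (43.9% to 50.8% of entries) were left out.

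Symbols, coordinates and exonic lengths came from GENCODE M21 on GRCm38 (mm10), which matched 47224 of 47643 identifiers, and promoters from RefSeq on GRCm38.p6. Counts were fitted with edgeR 4.0.16 in R 4.3.3 (filterByExpr, TMM, quasi-likelihood F test, two-sided, Benjamini-Hochberg over all tested genes, called below 0.05) and the fit was tested on simulated data. Standard errors were derived from the F statistic, and CPM used TMM-scaled totals. Intervals of read ratios were exact Poisson intervals (95%), for counting error only, since reads are not independent molecules.

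Libraries of the same number deviated together: deviations from group means correlated at 0.325, 0.401 and 0.400, against -0.284 to -0.002 for other pairs. The pairing is thus inferred from the data. The blocked fit is given where it changed a call.

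The germline genes, the lists and the roles were chosen with earlier results of these data known. Values in every library are given for tested genes and those with at least 20 reads, and for other lists called genes or the 3 with the smallest p; 2 listed genes are not reported here by name. Alternatives were DESeq2 1.42.0, RLE and upper-quartile factors, other filters, the block, a fit lacking mitochondrial and small RNA genes, libraries left out and, chosen after seeing the data, pairs 1 and 3 only.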

Additional observations from a re-analysis of the deposited data

How the results depend on the processing

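The number of germline genes called, 2 as reported, was 4 with upper-quartile factors, 1 with no low-count filter and 1 on library pairs 1 and 3 only. It was 0 to 3 with 1 library left out, and 3 with the replicate block, which changed no call of a germline gene other than that of Ddx4. With that block 4820 of all genes were called, against 3735 without it, and 1818 to 3766 with 1 library left out. The second germline list gave 1 to 4 calls, and 2 on pairs 1 and 3 only, and the methylation and repressor list 3 to 6, with 1 library left out. Ddx4 passed with upper-quartile factors (edgeR adjusted p = 0.0499), without shUHRF1 replicate 2 (0.0188) and on pairs 1 and 3 only (0.0461), and Tdrkh with upper-quartile factors (0.0494). DESeq2 called 2 of the 12 germline genes. Piwil2 and Tex15 kept positive log2 fold changes under these alternatives. The log2 ratio of the summed germline reads, 0.22, was 0.35 with library totals, 0.34 with upper-quartile factors, 0.16 without Tdrkh, 0.15 without genes with overlapping exons and 0.027 over the untested genes, and 0.22 as the mean of within-pair differences. The difference in genes detected, 5.33, was 3.67 with at least 3 reads and 0.333 with at least 10. Depth limits 30 of the 42 genes to read counts with wide intervals.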

Other observations

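Without a low-count filter, 6 of 44 genes of the second germline list with a read were called by edgeR at an adjusted p below 0.05, all higher in shUHRF1, against 6.75% of all genes called higher in that fit. A pair of them had too few reads for the filtered test and were chosen here after their values were seen. Dppa2, a chromatin factor of pluripotent cells whose promoter is methylated in somatic cells, had 20, 8 and 18 reads in shUHRF1 replicates 1, 2 and 3 and 4, 2 and 5 reads in shControl replicates 1, 2 and 3 (log2 fold change 1.82, edgeR adjusted p = 0.0327). Tex16, an X-linked testis gene, had 21, 4 and 2 reads in shUHRF1 and 0, 0 and 1 read in shControl (edgeR adjusted p = 0.0105), most of them in shUHRF1 replicate 1. Dmc1, the meiotic recombinase, which was also chosen after its values were seen and did not pass (edgeR adjusted p = 0.168), had 15, 15 and 8 reads in shUHRF1 and 6, 5 and 0 reads in shControl. Of the 44 genes, 30 had a higher mean CPM in shUHRF1 and 14 a lower one. Among the lower ones, Zp3 had 1, 5 and 3 reads in shUHRF1 and 14, 3 and 14 reads in shControl (log2 fold change -1.87, edgeR adjusted p = 0.0759). Tdrd6 was lower in every shUHRF1 library (log2 fold change -0.83, edgeR adjusted p = 0.0757). Neither was called, and both were chosen after their values were seen.

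Ehmt1, a histone H3 lysine 9 methyltransferase on the repressor list, had 6660, 1246 and 1317 reads in shUHRF1 replicates 1, 2 and 3 and 5725, 1070 and 1350 reads in shControl replicates 1, 2 and 3. The libraries numbered 1 stood apart from the others in both groups for this gene.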
